A study of Mus musculus with 13 samples.

Results

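Splicing factors, the kinases that phosphorylate them and the L-type cyclins were examined in the hippocampus of Tmem184b mutant and wild type mice. The set holds 59 of the 25025 genes in the deposited tables, taken by gene symbol (Srsf, Tra2, Hnrnp, Clk, Srpk, Ccnl, Luc7l, Rbfox, Nova, Ptbp and Celf genes) and by a mean of at least 10 normalized counts at either age. Of 60 symbols that matched, 1, a pseudogene, fell under that mean. The members are 13 SR proteins, 20 hnRNP proteins, 7 SR kinases, 2 L-type cyclins, 3 LUC7-like proteins and 14 tissue-specific and polypyrimidine tract regulators, and all 59 were tested at both ages. Mutants carry the gene-trap insertion Tmem184bGt(IST10294F4) on the C57BL/6 background, and controls were in-house C57BL/6 mice, littermates where that could be had. RNA of whole hippocampus was sequenced from 4 wild types and 3 mutants aged 5 months and from 3 wild types and 3 mutants aged 15 months, with 1 library per mouse and no further treatment. The study's methods give the 15-month wild types as all female and the mutants as of both sexes, so that genotype and sex cannot be fully told apart at that age, and the sex of single libraries is not in the labels.

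Pre-mRNA splicing is carried out by the spliceosome, in which the U1 and U2 particles first mark the ends of each intron. SR proteins bind exons and recruit those particles, hnRNP proteins often oppose them, and families such as RBFOX, NOVA, CELF and PTBP set which exons neurons include. SRPK kinases phosphorylate SR proteins in the cytoplasm for import into the nucleus and CLK kinases phosphorylate them further inside it, where cyclins L1 and L2, partners of the CDK11 kinases, lie in the same nuclear speckles. Many SR protein and CLK genes also make transcripts with a retained intron or a premature stop codon, a known way in which these genes limit their own levels.

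The values are normalized counts, which are reads per gene scaled to be comparable between libraries of one age. The targeted gene Tmem184b was between 2329 and 2475 in the 7 wild types of both ages and between 29.4 and 57.8 in the 6 mutants. The sum of normalized counts per library was between 28086279 and 32383546, which is not sequencing depth, and the reads behind a value are unknown. Neuronal markers were high in all libraries, with a summed level of 10 genes between 354601 and 446738. Choroid plexus markers varied between mice of one genotype, and mutant replicate 3 at 15 months had the highest erythrocyte level, 189306 summed over 5 genes against at most 28382 in wild types of that age. In whole tissue, fewer cells of a type and less RNA per cell cannot be told apart. Nothing in the sources used here says whether libraries kept strand, and Ccnl1, Srsf2, Clk3, Ptbp1 and Srpk2 are among the members with an annotated gene on the opposite strand.

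At 5 months, both L-type cyclins, the kinases Clk1 and Clk4, 4 SR proteins and Luc7l were lower in mutants, by between 0.33 and 0.71 on the log2 scale. These 9 members passed the limma test at an adjusted p under 0.05 and all 9 were lower, where 2.27% of the 15563 genes tested passed it, 1.15% as lower and 1.12% as higher. Of the 59 members, 40 had a log2 fold change below 0 and their median was -0.11, beside 0.00025 over all genes tested. In 27 members no mutant value overlapped the wild type values, 19 lower and 8 higher, and this was so for 18.5% of all genes tested, 9.23% lower and 9.3% higher. At an unadjusted p under 0.05 the members called numbered 27, against 20.5% of all genes tested. The calls depend on single mice, as do those over all genes tested, of which 354 were called with all mice. Without wild type replicate 3 or mutant replicate 3, 0 of the 9 passed, with 7 and 15 of all genes called. Without wild type replicate 1 or 2, 3 passed, with 88 and 107 of all genes called. Without wild type replicate 4, 4 passed, with 53 of all genes called. All 9 passed without mutant replicate 1 or 2. Members called then numbered 15 (12 lower, 3 higher) and 17 (13 lower, 4 higher), with 846 and 901 of all genes called. All 9 stayed below 0 in every fit.

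**Figure D1:**
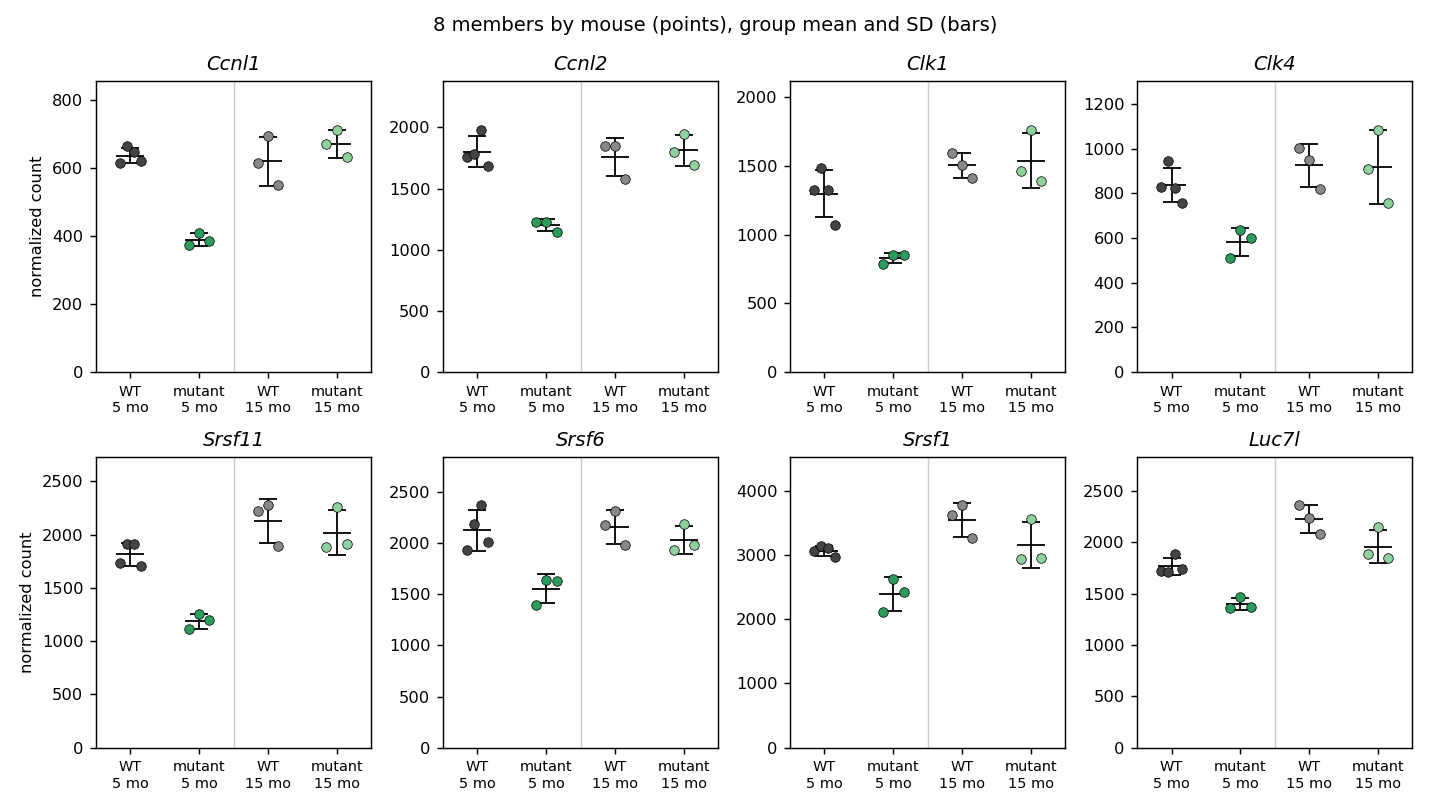
Normalized count (y axis, from 0) of 8 members in each mouse by genotype and age, with points for mice and bars for the group mean and SD. At 5 months every mutant (dark green) lies below every wild type (black) for all 8 genes, and at 15 months the groups overlap for each of them.

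Among the 59 members the L-type cyclin Ccnl1 had the lowest log2 fold change. Ccnl1 (cyclin L1, chromosome 3, 65946151 to 65958249, minus strand, GRCm38) was at 615, 665, 646 and 620.4 normalized counts in the 4 wild types and at 373, 409 and 387 in the 3 mutants. The groups were far apart, and the spread within each was small. The mutant mean was 61.2% of wild type, 389.6 ± 18.1 (SD, n = 3) against 636 ± 23.2 (SD, n = 4), a log2 fold change of -0.71 (SE 0.093; adjusted p = 0.0176, limma). Ccnl2 (cyclin L2, chromosome 4, 155812489 to 155824543, plus strand) was at 1755, 1778, 1982 and 1686 in wild types and at 1229.8, 1229.8 and 1148 in mutants. Again no value overlapped, and the log2 fold change was -0.58 (SE 0.081; adjusted p = 0.0190, limma). With single mice left out Ccnl1 stayed between -0.74 and -0.68 and Ccnl2 between -0.61 and -0.53, with limma adjusted p of 0.0687 for both without wild type replicate 3, and of 0.0502 and 0.0538 without mutant replicate 3. These 2 genes on different chromosomes thus differed by a like amount, and per kilobase of the longest transcript Ccnl2 had the higher level, 366 against 128 normalized counts over the 7 mice.

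Among the kinases of SR proteins, Clk1 and Clk4 were called lower and the other 5 were not called. Clk1 (chromosome 1, 58410189 to 58424066, minus strand), a dual-specificity nuclear kinase, was at 1323, 1482, 1324 and 1068 in wild types and at 785, 853 and 854 in mutants. Wild type replicate 4 was the lowest of its group and still above all mutants. The log2 fold change was -0.64 (SE 0.11; adjusted p = 0.0280, limma). Clk4 (chromosome 11, 51261730 to 51281766, plus strand), its close paralog, was at 830.1, 943, 822 and 758 in wild types and at 512, 634 and 602 in mutants, with a log2 fold change of -0.53 (SE 0.11; adjusted p = 0.0386, limma). How reads shared by these paralogs were divided rests on the authors' quantification. Clk2 did not overlap between genotypes either, at 730.0 to 796 in wild types and 576 to 626 in mutants, and its log2 fold change of -0.33 did not pass (limma adjusted p = 0.0697). Clk3 overlapped between genotypes, with a log2 fold change of -0.14 (limma adjusted p = 0.393). The SRPK kinases, which act on SR proteins in the cytoplasm, had log2 fold changes of 0.14 for Srpk1, 0.02 for Srpk2 and -0.51 for Srpk3, with limma adjusted p from 0.238 to 0.933 and overlapping values in all 3. Srpk3 was the least abundant of the 59 members per kilobase, at 34.2 normalized counts over the 7 mice.

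**Figure D2:**
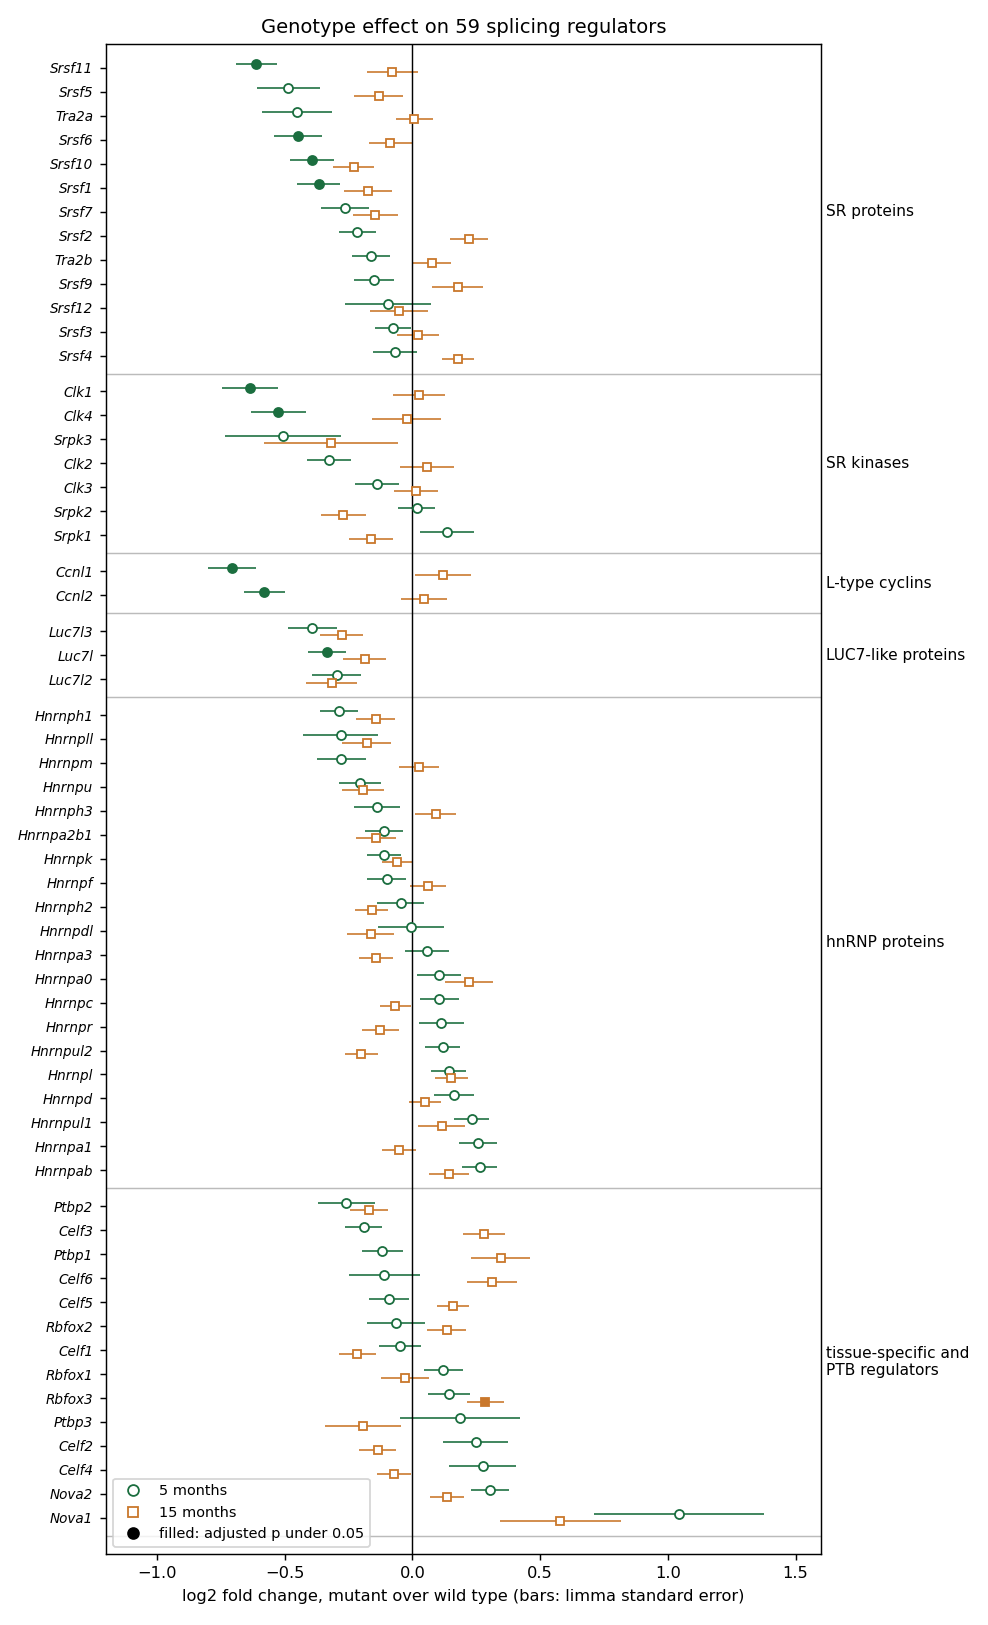
Log2 fold change of mutant over wild type (x axis) for each of the 59 members (y axis, grouped by family and ordered by the 5-month value), at 5 months (green circles) and 15 months (orange squares), with limma standard errors as bars and filled symbols for an adjusted p under 0.05. All 13 SR proteins lie left of 0 at 5 months, and the hnRNP proteins lie on both sides.

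All 13 SR proteins had a 5-month log2 fold change below 0, from -0.61 to -0.07 with a median of -0.26. Of these 4 passed the test (30.8%, beside 2.27% of all genes tested). In 9 the mutants did not overlap the wild types (69.2%, beside 18.5%). Srsf11 (chromosome 3, 158010473 to 158036639, minus strand), an SR protein of nuclear speckles, was at 1736, 1909, 1909 and 1706 in wild types and at 1113, 1251 and 1200.0 in mutants. All mutants were below all wild types by a wide margin, with a log2 fold change of -0.61 (SE 0.081; adjusted p = 0.0178, limma). Srsf6 was at 1928 to 2369 in wild types and 1391 to 1642 in mutants, a log2 fold change of -0.45 (SE 0.095; adjusted p = 0.0415, limma). Srsf10, a general splicing repressor when it is dephosphorylated, was at 1035 to 1189.6 in wild types and 819.6 to 913 in mutants (-0.39, limma adjusted p = 0.0455). Srsf1, the SR protein first purified as a splicing factor, was at 2961 to 3146 in wild types and 2107 to 2629 in mutants (-0.37, limma adjusted p = 0.0484). Srsf5, with the highest mean of the SR proteins, was at 5165 to 6393 in wild types and 3168 to 4509 in mutants, and its log2 fold change of -0.49 was not called (limma adjusted p = 0.0617). Mutant replicate 1 was the lowest of its group for Srsf11, Srsf6, Srsf1 and Srsf5. The smallest differences of the family were those of Srsf3, at -0.08, and Srsf4, at -0.07.

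The 3 LUC7-like genes, relatives of a yeast protein of the U1 particle that helps to choose the start of introns, had no overlap between genotypes at 5 months. Luc7l (chromosome 17, 26252896 to 26285504, plus strand) was at 1716, 1709, 1888 and 1744 in wild types and at 1357, 1468 and 1371 in mutants, with a log2 fold change of -0.33 (SE 0.075; adjusted p = 0.0474, limma). Luc7l3 and Luc7l2 had log2 fold changes of -0.39 and -0.30 that did not pass (limma adjusted p = 0.0570 and 0.119).

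The hnRNP proteins were divided in direction. Of 20, 10 were above and 10 below 0, and 0 passed the limma test at 5 months. With no adjustment of p 6 passed, beside 20.5% of all genes tested. Hnrnpab and Hnrnpa1, which bind pre-mRNA and mRNA in the nucleus, had the highest values, with log2 fold changes of 0.26 in both (limma adjusted p = 0.0677 and 0.0889). Their mutants lay above all wild types, at 7197 to 7868 against 6001 to 6449 for Hnrnpab and at 7149 to 8055 against 5879 to 6601 for Hnrnpa1. Hnrnph1 had the lowest value, -0.29 (limma adjusted p = 0.0684). Hnrnpk, the hnRNP gene with the highest mean, was at -0.11 (limma adjusted p = 0.380).

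The 14 tissue-specific and polypyrimidine tract regulators were also divided, 7 above and 7 below 0, with none called at 5 months. At an unadjusted p under 0.05 there were 4, beside 20.5% of all genes tested. Nova1, a neuronal regulator, had the largest log2 fold change of the 59 members, 1.04, and the largest spread among those named, with a standard error of 0.33 (limma adjusted p = 0.116). It was at 662, 696, 579 and 698 in wild types and at 1132, 759 and 2891 in mutants. Mutant replicate 3 alone was over 2 times either other mutant, and without it the log2 fold change was 0.50, while without mutant replicate 2 it was 1.46 and passed (limma adjusted p = 0.0240, from 0.0240 to 0.237 over single mice left out). Its paralog Nova2 was at 0.31 (limma adjusted p = 0.0567), with mutants from 7559 to 8659 above wild types from 6297 to 7001.

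**Figure D3:**
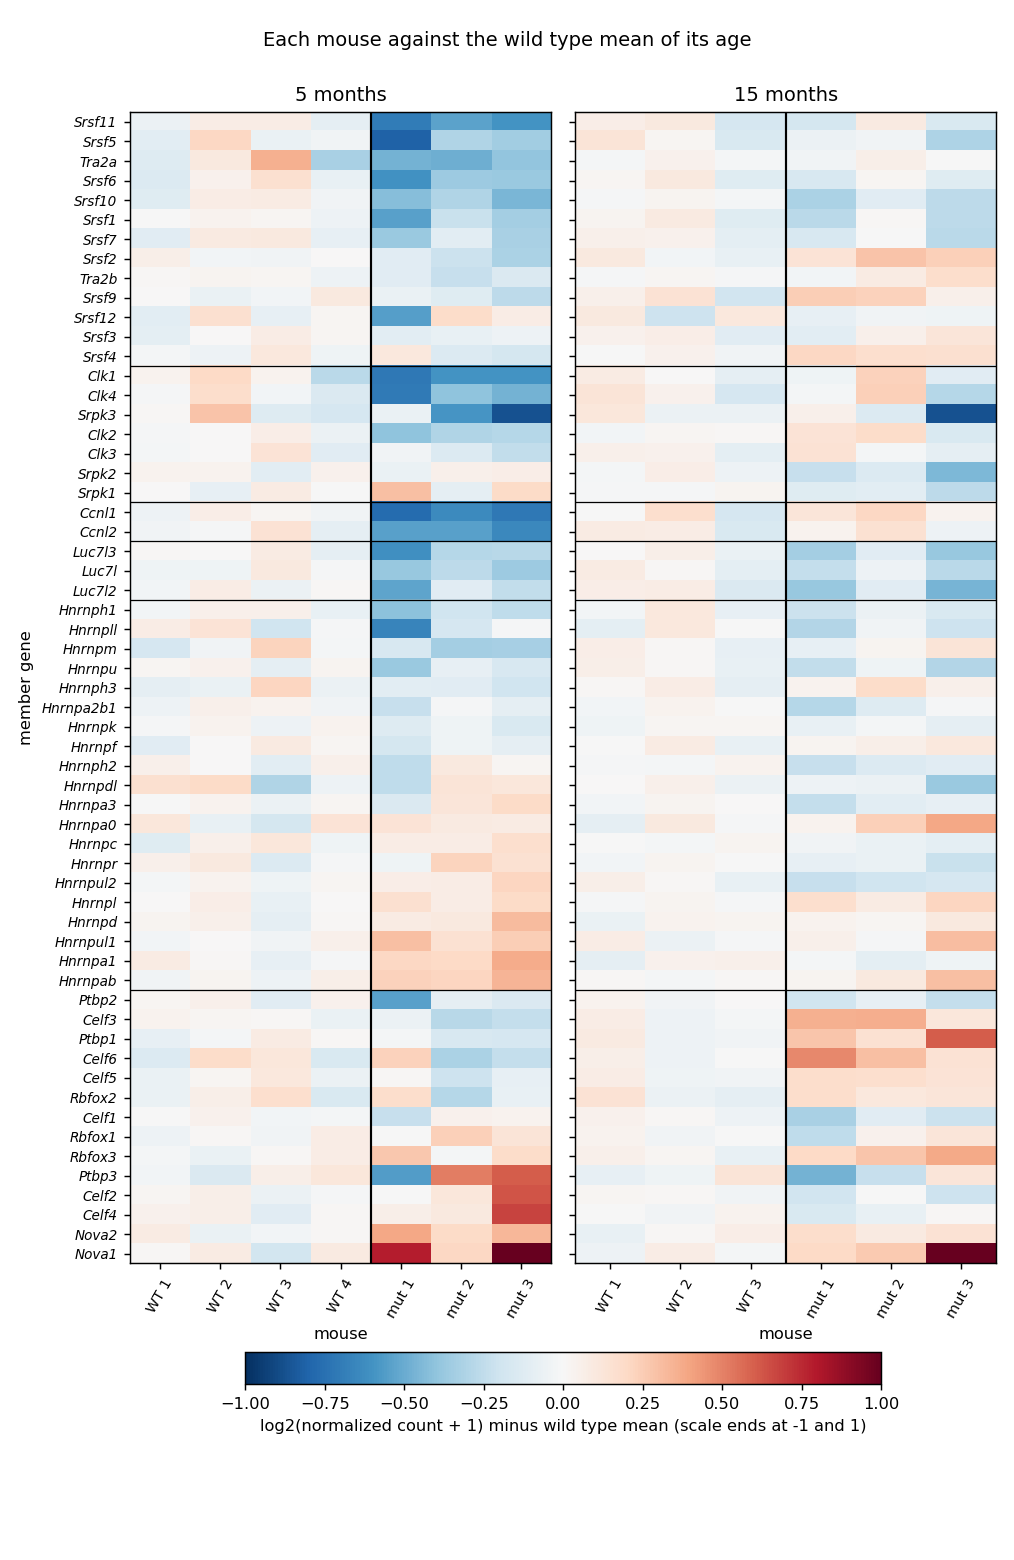
Difference of each mouse from the wild type mean of its age in log2(normalized count + 1), by member gene (rows, grouped by family) and mouse (columns), in blue where lower and red where higher, with the colour scale ending at -1 and 1. The cyclins, Clk1, Clk4 and Srsf11 are blue in all 3 mutants at 5 months and paler at 15 months, while for Nova1 mutant replicate 3 is the deepest red at both ages.

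At 15 months the genotypes overlapped in 8 of the 9 members that were called at 5 months, all but Srsf10. The test called 1 member, where 6.02% of the 15541 genes tested passed, 1.99% as higher and 4.03% as lower, and 19 members passed with no adjustment of p, against 28.8% of all genes tested. In 22 members the genotypes did not overlap, 11 lower and 11 higher, against 34.1% of all genes tested, 17.7% lower and 16.4% higher. The count of 1 became 4 without mutant replicate 2, 3 without mutant replicate 3 and 0 without any 1 other mouse of that age. The median log2 fold change of the members was -0.05, beside 0.02 over all genes tested. Ccnl1 was at 614, 695 and 551 in wild types and at 670.1, 713 and 631 in mutants, a log2 fold change of 0.12 (limma adjusted p = 0.500). Ccnl2 was at 1851, 1846 and 1574 in wild types and at 1796, 1943 and 1696 in mutants (0.05, limma adjusted p = 0.767). Clk1, at 0.03, Clk4, at -0.02, and Srsf11, at -0.08, overlapped between genotypes as well.

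The member called at 15 months was Rbfox3 (chromosome 11, 118489762 to 118911597, minus strand), which encodes the neuronal antigen NeuN and had the highest level per kilobase of the 59 members. It was at 12559, 12327 and 11525 in wild types and at 13934, 14697 and 15786 in mutants. No values overlapped, and the log2 fold change was 0.29 (SE 0.072; adjusted p = 0.0497, limma). With libraries corrected for GC content and transcript length the difference was 0.08 (limma adjusted p = 0.604), with quantile normalization it was 0.14 (limma adjusted p = 0.217), and it lost the call without any 1 of the 3 wild types or of mutant replicates 1 and 2 (limma adjusted p from 0.0605 to 0.170), while over the alternatives with all mice the adjusted p ran from 0.0418 to 0.604. Ptbp1, a repressor of neuronal exons outside neurons, was at 1178, 1066 and 1077 in wild types and at 1339.8, 1232 and 1682 in mutants (0.35, limma adjusted p = 0.0884). Celf6 was at 0.31 (limma adjusted p = 0.0785) and Celf3, a CELF protein of the nervous system, at 0.28 (limma adjusted p = 0.0671), both with mutants above all wild types. With the correction for GC content and length Celf6 was at 0.11 and Celf3 at 0.13 (limma adjusted p = 0.68 and 0.58). Nova1 was at 0.58 (limma adjusted p = 0.145), and mutant replicate 3, at 1916, was again far above the other mutants, at 908 and 952. The 3 LUC7-like genes were below 0, at -0.28 for Luc7l3, -0.19 for Luc7l and -0.32 for Luc7l2, with limma adjusted p from 0.0726 to 0.176. Their median of -0.28 was -0.061 with the correction for GC content and length. Srpk2, the SR kinase with the highest mean, was at 3528, 3739 and 3446 in wild types and at 3046, 3254 and 2613 in mutants (-0.27, limma adjusted p = 0.0840). With that correction Srpk2 was at 0.0076 (limma adjusted p = 0.975).

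Whether the genotype effect itself differed between the ages was tested with an interaction term over the 13 libraries. It was higher at 15 months than at 5 months in 5 members and lower in 0, where 1.75% of the 15340 genes tested passed, 0.613% as higher and 1.13% as lower, and 22 members passed with no adjustment of p, against 21.1% of all genes tested. The difference was 0.83 for Ccnl1 (SE 0.13; adjusted p = 0.0131, limma), 0.63 for Ccnl2 (SE 0.12; adjusted p = 0.0268, limma) and 0.66 for Clk1 (SE 0.16; adjusted p = 0.0466, limma). Srsf2, an SR protein of nuclear speckles also known as SC35, passed at 0.44 (limma adjusted p = 0.0435) although neither age alone passed, with mutants at 2735 to 3147 against wild types at 3335 to 3540.4 at 5 months and at 3575 to 3962 against 3081 to 3473 at 15 months. Celf3 passed at 0.47 (limma adjusted p = 0.0450), from -0.19 at 5 months to 0.28 at 15 months. With libraries corrected for GC content and length Srsf2 was at 0.32 and Celf3 at 0.37, and neither passed (limma adjusted p = 0.0907 and 0.0986). Srsf11 was at 0.53 and did not pass (limma adjusted p = 0.0503), and Clk4 was at 0.50 (limma adjusted p = 0.139). All 13 SR proteins had a difference above 0, from 0.04 to 0.53. The count of 5 became 15 without mutant replicate 1 at 5 months, of which 10 were higher and 5 lower, 7 without mutant replicate 3 at 15 months, and 1 to 3 without any 1 of the other 11 mice. Ccnl1 passed with any 1 of the 13 mice left out, Ccnl2 with 8 of the 13, Clk1 with 3, and Srsf2 and Celf3 with 2 each. Without wild type replicate 3 at 15 months the differences were 0.55 for Ccnl2, 0.62 for Clk1, 0.40 for Srsf2 and 0.46 for Celf3 (limma adjusted p = 0.0811, 0.131, 0.123 and 0.123).

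Other genes of the splicing machinery were counted from lists by symbol. Of 27 core proteins of the U1 and U2 particles and the Sm ring, limma called 0 at 5 months. An unadjusted p under 0.05 was reached by 4, beside 20.5% of all genes tested. It called 3 higher at 15 months, U2af2 at 0.26, Snrpf at 0.32 and Sf3b5 at 0.33 (11.1%, beside 6.02% of all genes tested). At 15 months 24 of the 27 were above 0, with a median of 0.18, a median that was 0.08, with 1 gene called, once libraries were corrected for GC content and length. Of 36 tri-snRNP and catalytic step factors, 1 (2.78%) was called at 5 months, Prpf39, at -0.65 (limma adjusted p = 0.0404), and 2 at 15 months (5.56%), Ddx46 at -0.39 and Snrnp200, the helicase that unwinds the U4 and U6 RNAs, at -0.30. Of 48 other splicing regulators tested, 9 were called at 5 months (18.8%, beside 2.27% of all genes tested) and all 9 were lower. Rsrp1 was at -0.62, Arglu1 at -0.49, Tia1, which binds U-rich sequence after the start of introns, at -0.66, and Pnn at -0.46, with limma adjusted p from 0.0238 to 0.0313. At 15 months 4 of the 48 were called (8.33%), Scaf1 higher at 0.32 and Qk, Son and Mbnl2 lower at -0.37, -0.38 and -0.34.

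Lists of partners and products of the pathway were counted in the same way. The 9 kinases of RNA polymerase II and their cyclins are a list that holds the CDK11 partner of the L-type cyclins. Among them limma called 0 at 5 months, with 1 at an unadjusted p under 0.05, beside 20.5% of all genes tested. At 15 months it called Ccnt2, a cyclin of the elongation kinase P-TEFb, lower at -0.80, which was -0.49 and not called with libraries corrected for GC content and length (limma adjusted p = 0.120). Among 15 exon junction and nonsense-mediated decay factors it called 0 at either age, with 2 and 4 at an unadjusted p under 0.05. That threshold was passed by 20.5% and 28.8% of all genes tested. Over these 5 lists together, the 10 genes called at 5 months became 0 without wild type replicate 3 or mutant replicate 3, 1 without wild type replicate 1 or 2, 4 without wild type replicate 4 and 16 without mutant replicate 1 or with the correction for GC content and length. The 10 called at 15 months became 0 without any 1 wild type or without mutant replicate 1, 19 without mutant replicate 2 and 1, Sf3b5, with that correction. Of all genes tested, 354 were called at 5 months, 7 without wild type replicate 3 and 15 without mutant replicate 3. Without mutant replicate 1 of that age there were 846, and with that correction 927. Of 8 long RNAs kept in the nucleus, 4 were lower at 5 months, with Neat1, the scaffold of paraspeckles, at -0.99, Mirg at -0.83 and Snhg11 at -0.64, and Kcnq1ot1 was higher, at 1.53, so that 5 of 8 were called (62.5%, beside 2.27% of all genes tested). Neat1 was at 3142 to 5219 in wild types and 1845 to 2437 in mutants of 5 months. Malat1, an RNA of nuclear speckles, was not called at 5 months and was higher on average in mutants. It was at 8873, 14685 and 15356 in mutants against 6827 to 10021 in wild types, so the genotypes overlapped. With the correction for GC content and length 5 of the 8 were called lower and 2 higher at that age. At 15 months 3 of the 8 were lower (37.5%, beside 6.02%), with Malat1 at -1.05, Neat1 at -0.43 and Kcnq1ot1 at -0.45. With the correction for GC content and length only Malat1 of these 3 was called, at -0.76, while Neat1 was at -0.16 and Kcnq1ot1 turned to 0.05, and the median of the 8 went from -0.19 to 0.020. Rbm3, a cold-inducible RNA-binding protein, was higher in mutants at 15 months, at 0.59 (limma adjusted p = 0.0415), and was not called with that correction, at 0.65 (limma adjusted p = 0.0869).

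Other genes moved between the same mice, and their part in the result was not tested. At 5 months all 12 choroid plexus markers had lower values in mutants, 5 of them called and 10 with the correction for GC content and length, and their summed level was 6619 to 195506 in wild types and 2692 to 6928 in mutants. The defining marker Ttr was at 70638, 2570.2, 84223 and 157866 in wild types and at 500.2, 2389 and 329 in mutants. Wild type replicate 2, at 6619, lies within the range of the mutants. In each of the 9 members called every wild type was above every mutant, so the place of 1 mouse cannot show the part of these markers. All 12 immediate early genes, which neurons induce on activity, had a log2 fold change below 0 at 5 months, with 1 called, Npas4 at -0.72, and above 0 at 15 months, with 7 called, counts that were 6 and 1 with the correction for GC content and length. Their summed level at 5 months was 15243 to 30503 in wild types and 12180.3 to 16591 in mutants. Wild type replicate 1, at 15243, lies within the mutant range. Astrocyte markers summed to 66989 to 73832 in wild types and 81966 to 88621 in mutants at 5 months, with 1 of 8 called, Gfap higher at 0.54. Of the 8, 5 were above 0 and 3 below. Only 2 had no overlap between genotypes (25%, beside 18.5% of all genes tested). These were Gfap and Aldoc, which have the highest levels of the 8 and so weigh most in the sum. Neuronal markers had 0 of 10 called at 5 months, with 3 at an unadjusted p under 0.05, oligodendrocyte markers 0 of 10, with 0 at that threshold, and microglial markers 1 of 8, Itgam at -0.52. At 15 months oligodendrocyte markers had 5 of 10 called, all lower. Of all genes tested 2.27% were called at 5 months and 6.02% at 15 months. An unadjusted p under 0.05 was reached by 20.5% at 5 months.

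**Figure D4:**
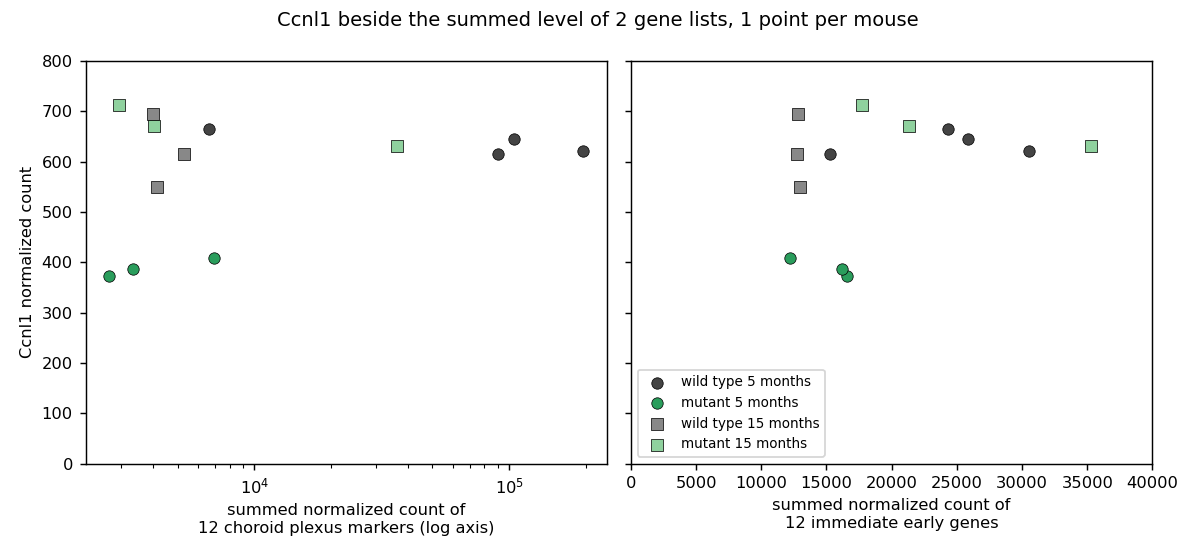
Ccnl1 normalized count (y axis, from 0) against the summed normalized count of 12 choroid plexus markers (left, log axis) and of 12 immediate early genes (right, linear axis), with 1 point per mouse, circles for 5 months, squares for 15 months and green for mutants. The 3 mutants of 5 months lie between 373 and 409 for Ccnl1, and the wild types of that age between 615 and 665.

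The members were compared in features that did not enter their choice. The annotation lists both a transcript subject to nonsense-mediated decay and a retained-intron transcript for 8 of the 9 members called lower at 5 months, for 28 of the other 50 members (56%) and for 19.8% of all genes tested. The median number of annotated transcripts per gene was 10 for the 9, 9.5 for the other members and 5 for all genes tested. A gene with more annotated transcripts has more room for both types. These are annotated transcripts and were not measured, since values are per gene. The 9 lie on 6 chromosomes and their longest transcripts have a median GC content of 41.4%, beside 44.9% for the other members. Over the 59 members the Spearman correlation of the log2 fold change with GC content was 0.22 at 5 months and 0.50 at 15 months, beside 0.14 and 0.49 over all genes tested, which share their libraries. With libraries corrected for GC content and transcript length, 15 members were called at 5 months, 13 lower and 2 higher (Hnrnpa1 and Hnrnpab), and 0 at 15 months, and 8 of the 9 remained called, with Srsf10 at -0.32 (limma adjusted p = 0.0592) as the exception, over a range of 0.0170 to 0.181 in its alternatives with all mice. Of all genes tested, 927 were called at 5 months with that correction and 354 without it.

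Promoters are shown for 4 of the called members, 1 or more from each of the cyclins, CLK kinases and SR proteins, since these genes were lower together. The sequences are 300 bases long, most of them before the start that RefSeq gives for the gene on GRCm38.p6, where 52 of the 59 members were matched. Ccnl1 is chr3:65958200-65958499 on the minus strand, Ccnl2 chr4:155812239-155812538 on the plus strand, Clk4 chr11:51262864-51263163 on the plus strand and Srsf11 chr3:158036557-158036856 on the minus strand. The RefSeq start is that of the GENCODE coordinates above for Ccnl1 and Ccnl2, and for Clk4 and Srsf11 it lies inside the gene as GENCODE draws it, so that the whole Clk4 stretch is inside that gene. Capitals mark the motifs searched, which are the cAMP response element (TGACGTCA), the CCAAT box (CCAAT), an ETS site (CCGGAAG), the NRF1 site and the TATA box (TATAAA), on both strands.
Ccnl1: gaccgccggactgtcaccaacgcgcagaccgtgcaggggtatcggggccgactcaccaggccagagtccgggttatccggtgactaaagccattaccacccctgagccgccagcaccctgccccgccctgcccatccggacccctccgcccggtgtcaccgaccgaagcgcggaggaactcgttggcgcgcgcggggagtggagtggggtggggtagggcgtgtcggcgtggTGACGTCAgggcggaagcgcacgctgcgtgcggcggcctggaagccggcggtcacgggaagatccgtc
Ccnl2: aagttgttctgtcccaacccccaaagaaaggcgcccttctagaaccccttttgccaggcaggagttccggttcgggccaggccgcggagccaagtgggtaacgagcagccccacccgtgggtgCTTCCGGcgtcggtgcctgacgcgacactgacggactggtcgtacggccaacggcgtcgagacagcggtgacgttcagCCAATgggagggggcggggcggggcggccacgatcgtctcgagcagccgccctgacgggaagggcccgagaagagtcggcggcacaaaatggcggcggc
Clk4: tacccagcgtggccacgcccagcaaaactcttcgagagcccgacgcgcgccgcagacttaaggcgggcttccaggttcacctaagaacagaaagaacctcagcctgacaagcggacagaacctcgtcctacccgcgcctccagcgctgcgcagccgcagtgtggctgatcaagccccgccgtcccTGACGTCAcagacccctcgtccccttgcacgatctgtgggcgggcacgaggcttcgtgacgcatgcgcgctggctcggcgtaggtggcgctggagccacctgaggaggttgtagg
Srsf11: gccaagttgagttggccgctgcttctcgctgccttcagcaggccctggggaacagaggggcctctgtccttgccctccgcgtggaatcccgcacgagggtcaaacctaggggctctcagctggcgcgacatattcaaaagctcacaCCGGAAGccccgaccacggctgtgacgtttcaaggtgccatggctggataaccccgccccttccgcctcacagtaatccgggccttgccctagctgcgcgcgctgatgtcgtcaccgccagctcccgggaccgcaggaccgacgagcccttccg

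Ccnl1 and Clk4 hold the full cAMP response element, 18 and 65 bases before the RefSeq start, and Ccnl2 and Srsf11 hold an ETS site, at 127 and 104 bases before it, with a CCAAT box in Ccnl2. The cAMP response element was in 2 of the 7 called members with a promoter (Ccnl1 and Clk4), in 4 of the 52 members matched and in 1.79% of the 32851 promoters of this length. The CCAAT box was in 3 of the 7, 23 of the 52 and 37.4% of all promoters, and the ETS site in 2 of the 7, 8 of the 52 and 8.86%. The NRF1 letters were in 0 of the 52 and 0.971% of all promoters, and the TATA letters in 0 of the 7, 7 of the 52 and 13.6%. A match describes these letters and not a bound site.

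Across the 13 libraries, deviations of each gene from its group mean were compared, as a description in which the points share libraries and normalization. Those of Ccnl1 were most like those of Gm14326, Mnd1, Thoc7, Timm21 and Uspl1, with Pearson correlations of 0.89 to 0.92. Those of Clk1 were most like those of Tmem169, Zfp516, Med1, Psg16 and Pcsk4, with correlations of 0.87 to 0.90. These are the highest values of all genes compared, over only 13 libraries. Whether unrelated genes reach such values in a search of this size was not tested. Among members, Clk4 was at 0.86 with Clk1, and Ccnl1 was at 0.85 with Srsf11, 0.70 with Ccnl2 and 0.54 with Clk1, pairs that were chosen after the results were known.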

How the data were processed

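RNA sequencing of hippocampus was analysed in 13 mice. Per the labels, the authors quantified paired-end reads with Salmon 0.11.1 against mm10 and normalized them with DESeq2, and the signal they deposited, 1 table per age, gives normalized counts of genes. Whole multiples of a library's step made up 68.6% to 87.3% of its low values (tolerance 0.05), so reads were not recovered, no count test was run and counting error is unknown.

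Within an age, mutants and wild types were compared by a two-sided limma test (version 3.58.1, R 4.3.3, lmFit and eBayes with its trend option) of log2(normalized count + 1), a scale that understates changes of low genes. Genes entered at a mean of 10 or more, and p-values were adjusted over all of them by the Benjamini-Hochberg method. Values were not compared between ages, apart from the genotype effects, since the tables may have been normalized separately. Mice are separate animals, numbered as in their titles. Positions come from the GENCODE annotation of GRCm38 (24399 of 25025 genes matched, 59 of 59 members).

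On simulated data with 200 changed genes, limma recovered 69.0% at 5 months (15563 genes, log2 change 1.0), 70.5% at 15 months (15541 genes, log2 change 1.0) and 82.0% for the difference between ages (15340 genes, log2 change 1.5), with 4.83%, 6.62% and 5.20% of calls false. These changes were larger than that of any member called, so recovery at the size of the members' effects was not tested. Values were drawn separately for each gene, so deviations that the genes of a library share were left out.

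Members and gene lists were chosen with earlier results of these data known. Named genes are all Clk, Srpk, Ccnl and Luc7l members, members called in any of the 3 comparisons with all mice and the settings above, the 5 largest changes without overlap per age, the highest mean of each family, and at most 4 called genes per list and age, and the 5 genes of the whole table most like Ccnl1 and like Clk1. Srsf3, Srsf4, Hnrnpab, Hnrnpa1, Hnrnph1, Hnrnpul2 and Nova2, and marker genes, were named after their values were seen. Alternatives tried were a pseudocount of 0.1 or 10, a minimum mean of 100 or none, rescaling by trimmed means (TMM) and by quantiles, robust hyperparameters, a replicate block, a loess correction for GC content and length (span 0.3), both together, one fit of 13 libraries and each mouse left out. Python 3.11.15, pandas 2.3.3, numpy 2.4.6 and matplotlib 3.10.9 were used.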

Additional observations from a re-analysis of the deposited data

Results flagged for a closer look

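The genotype effect differed between 15 and 5 months in 5 members by the interaction term (limma adjusted p under 0.05). The effect at 15 months minus that at 5 months was 0.8266 for Ccnl1, 0.6255 for Ccnl2, 0.6618 for Clk1, 0.4382 for Srsf2 and 0.4709 for Celf3, on the log2 scale. In each the mutants were at or below wild type at 5 months and at or above it at 15 months on average.

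Srpk2 had 1 wild type far from the others at 5 months. Replicate 3 was at 2554 normalized counts and the other 3 were at 2818, 2819 and 2830.3, so that the gap to the nearest was 0.955 of the range, above Dixon's critical value for 4 samples. Among 24 groups examined, chance gives about 1.2 such cases.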

How the results depend on the processing

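With all mice kept, the members called at 5 months numbered 8 to 12 under both pseudocounts, both filters, TMM, quantile normalization and robust hyperparameters. They numbered 15 with the GC content and length correction, 17 in one fit of 13 libraries, 0 with the replicate block and 1 with the block and correction together. Of all genes tested, 927, 725, 9 and 34 were called at 5 months in these fits, against 354 at first. Called genes of the other splicing lists numbered 10 at 5 months, against 16 with the correction, 16 in one fit, 0 with the block and 3 with both, and 10 at 15 months, against 4 with no filter, 17 with the block, 1 with the correction, 0 with both and 1 in one fit. At 15 months 1 member was called, against 0 with a pseudocount of 0.1, 0 with no filter, 5 with the block, 0 with the correction, 0 with both and 0 in one fit, while quantile normalization called Hnrnpul2, lower, in place of Rbfox3. The interaction called 5 members, against 3 with no filter, 4 with the correction, 0 with the block and 0 with the block and correction. The median member effect at 5 months was -0.16 with quantile normalization and -0.081 with the correction, and at 15 months -0.10 with quantile normalization and 0.053 with the correction, with or without the block. The cause of these shifts was not tested.

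With single mice left out, members called ranged from 0 to 17 at 5 months, 0 to 4 at 15 months and 1 to 15 for the interaction, and genes of the other lists from 0 to 16 and 0 to 19. Of all genes tested, 7 to 901 were called at 5 months in these fits. The medians ranged from -0.14 to -0.096 and from -0.067 to -0.012.

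The labels do not say whether replicate numbers mark a shared litter or batch. Mice of one number are different animals, and wild type replicate 4 at 5 months has no partner. Same-numbered deviations correlated at 0.058, -0.0080 and -0.091 at 5 months and 0.013, 0.074 and 0.16 at 15 months. Those of different numbers ran from -0.16 to 0.14 at 5 months and from -0.14 to 0.11 at 15 months. With so few pairs these values cannot settle whether a block is needed.

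The effects that changed sign, none of them called above, were as follows. With the GC content and length correction, alone or with the block, the 15-month effects turned to -0.076 for Clk2, -0.0051 for Clk3, 0.10 for Clk4, 0.0032 for Hnrnpk, 0.022 for Srpk1, 0.0076 for Srpk2, 0.052 for Srsf1 and 0.016 for Srsf6. The age difference of Luc7l2 turned to 0.0073 with TMM, 0.0052 with quantile normalization, 0.077 with the correction and 0.077 with block and correction, and that of Rbfox3 to -0.021 with block and correction. At 5 months Rbfox3 turned to -0.038 with quantile normalization, and Srpk2 to -0.0013 with TMM and -0.038 with quantile normalization. With single mice left out the 15-month effect ranged from -0.032 to 0.092 for Ccnl2, -0.077 to 0.095 for Clk1, -0.0078 to 0.16 for Clk2, -0.052 to 0.065 for Clk3 and -0.15 to 0.11 for Clk4, the 5-month effect of Srpk2 from -0.020 to 0.059, and the age difference from -0.13 to 0.071 for Luc7l2 and -0.88 to 0.082 for Nova1. Of 1389 values of single members under alternatives, 1190 kept direction and side of the threshold, 117 lost a call, 38 gained one and 44 changed sign. Only the results called at first could lose a call, 9 at 5 months, 1 at 15 months and 5 for the interaction. The 117 are therefore not to be read as a share of the 1389, which also hold the values of results that were never called.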
